A study of Mus musculus with 12 samples.

Results

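Replication of the genome in S phase was examined through 36 genes of replication licensing, DNA synthesis and the G1/S step, in left ventricular cardiac fibroblasts of mice, isolated 3 days after a myocardial infarction. The genes were chosen by their symbols in the deposited table, which lists 18771 genes, and all 36 were present and were among the 13600 genes tested. The infarction was made by permanently tying the left anterior descending coronary artery. Pfas CKO mice (PDGFRa CreER/+;Pfas fl/fl) carried a tamoxifen-inducible Cre at Pdgfra and had both alleles of Pfas floxed, and they received tamoxifen 7 and 3 days ahead of the infarction and again 1 day later. Control mice (PDGFRa CreER/+;Pfas fl/+) carried the same Cre and 1 floxed Pfas allele, so Cre and infarction were shared by the groups. The sources used here do not give the tamoxifen treatment of the control mice, the strain, the age or the method of cell isolation, and tamoxifen cannot be told apart from genotype. Each group had 6 libraries of mRNA. Pfas encodes an enzyme of de novo purine synthesis, and the study asked what it does in fibroblasts in vivo. Recombination could be expected only in cells with active Pdgfra, and the sources used here do not say how many of them recombined.

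DNA is copied once per cell cycle because origins are licensed and fired in separate steps. The origin recognition complex, with Cdc6 and Cdt1, loads the Mcm2 to Mcm7 helicase onto DNA in G1, cyclin E with Cdk2 drives entry into S phase, and Cdc45 and GINS then switch the helicase on. Primase and polymerase alpha start each strand, the RFC clamp loader places the PCNA ring that holds polymerases delta and epsilon on DNA, and Fen1 and Lig1 join the lagging-strand pieces while CAF-1 rebuilds nucleosomes. Many of these genes are targets of E2F transcription factors. Most fibroblasts of the uninjured adult heart are outside the cell cycle, and many enter it in the first days after infarction.

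Libraries held 20320133 to 20950074 estimated counts. Pfas itself had 8.01, 9.43 and 17.4 CPM (counts scaled to library size with TMM factors) in the lowest, median and highest Pfas CKO library, against 22.4, 23.1 and 24.9 CPM in control libraries, with no overlap. Its log2 fold change was -1.05 ± 0.156 (SE; edgeR adjusted p = 2.26e-05), and the highest Pfas CKO values were in Pfas CKO 2 (17.4 CPM) and Pfas CKO 4 (14.5 CPM). Libraries fell into near-identical sets (Pfas CKO 1, 3, 5 and 6; control 1 to 3; control 4 to 6), with Pfas CKO 2 and 4 apart. The mean chi-square per gene, where 1 is sampling noise, was 1.685 to 5.215 within a set, 17.55 to 39.88 across sets of a group and 168.9 to 253.2 between the groups. The labels do not say whether each library stands for its own mouse, so p-values measure library-to-library spread only, and that spread may be technical.

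Replication genes moved little as a group. Of the 36, 8 were higher in Pfas CKO fibroblasts by edgeR's quasi-likelihood test (adjusted p under 0.05 over 13600 genes), where 33.4% of all genes tested were higher, and 6 were lower, where 35.2% of all genes were. The remaining 22 passed the test in neither direction. The higher genes were Ccne2, Mcm3, Orc6, Slbp, Mcm5, Ccne1, Mcm4 and Chaf1b, and the lower genes were Cdt1, Rfc2, E2f1, Rfc3, Uhrf1 and Prim2. The median log2 fold change of the 36 was 0.06, against -0.02 over all genes tested. Sizes were small too. The median absolute log2 fold change was 0.18 for the replication genes and 0.38 for all genes, and the middle of the distribution (lower to upper quartile) ran from -0.15 to 0.18 for the replication genes and from -0.40 to 0.36 for all genes. A change of at least 1.5-fold that also passed the test was met by 1 replication gene in the higher direction (Ccne2; 15.2% of all genes) and by 0 in the lower direction (15.9% of all genes). In these bulk samples, the number of cycling cells and the amount of mRNA per cell cannot be told apart.

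**Figure D1:**
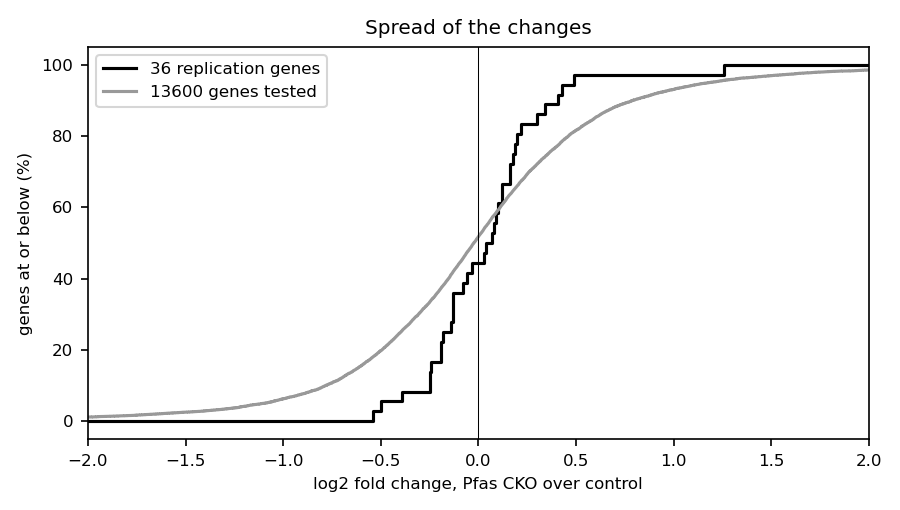
Cumulative distribution of log2 fold changes (x axis, Pfas CKO over control; y axis, percent of genes at or below the value) for the 36 replication genes (black) and the 13600 genes tested (grey), drawn from -2 to 2. The black curve is the steeper, with quartiles at -0.15 and 0.18 against -0.40 and 0.36 for all genes, and its single long step at 1.26 is Ccne2.

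The counts depended on how libraries were scaled. TMM factors were 0.9139 to 0.9339 in Pfas CKO and 1.071 to 1.101 in control libraries, and scaling by library totals alone moved the median of all genes to -0.26. Under that scaling 4 replication genes were higher (20.4% of all genes) and 17 were lower (53.0% of all genes), and their median was -0.18, which lies above that of all genes, as it did under TMM. Ccne2, Mcm3, Orc6 and Slbp were higher, and all 6 lower genes (Cdt1, Rfc2, E2f1, Rfc3, Uhrf1 and Prim2) lower, under both scalings, and the sign of 14 other genes turned negative. With the near-identical libraries summed into 3 Pfas CKO and 2 control samples, 4 replication genes were higher (18.3% of all genes) and 2 were lower (18.9% of all genes): Ccne2, Mcm3, Orc6 and Slbp, and Cdt1 and Rfc2.

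Cell type markers differed between the groups as well, and their part in the results on replication genes was not tested. The summed level of 12 fibroblast markers was 15780 to 17750 CPM in Pfas CKO and 18481 to 21515 CPM in control libraries, so markers of the labelled cell type were abundant in both. That sum was led by the collagens Col1a1, Col1a2 and Col3a1, which were lower, as were Pdgfra and Pdgfrb, while the other 7 markers were higher (median log2 fold change of the list 0.43). The 8 endothelial markers summed to 870 to 1115 CPM in Pfas CKO and 798 to 845 CPM in control libraries. Of these, 6 were higher and 2 lower, including Kdr (133 ± 30.2 CPM in Pfas CKO, 219 ± 4.71 CPM in control). Over 14 macrophage and monocyte markers the sums were 7203 to 8992 CPM in Pfas CKO and 6344 to 6977 CPM in control libraries. The macrophage and monocyte list was split, with 6 higher (such as Cd14, 1546 ± 145 CPM in Pfas CKO and 385 ± 34.4 CPM in control) and 5 lower (Ccr2, Ly6c2, Mertk, Cd68 and Adgre1), and a median of -0.02. Neutrophil markers (10) summed to 127 to 211 CPM in Pfas CKO and 226 to 251 CPM in control. That sum was led by Mmp8 in control (25.6 ± 7.78 CPM in Pfas CKO, 154 ± 14.7 CPM in control). In Pfas CKO it was led by Csf3r (65.2 ± 4.38 CPM in Pfas CKO, 71.9 ± 3.53 CPM in control). Mmp8 and Csf3r were lower, while S100a8, S100a9 and Ltf were higher, and the median of the 6 tested was 1.13. Mural markers (6) summed to 250 to 324 CPM in Pfas CKO and 232 to 272 CPM in control. Of these, 3 were higher, 1 was lower (Cspg4) and 2 were not called. Cardiomyocyte markers (8), 7 of which were tested and higher, summed to 36.5 to 44.5 CPM in Pfas CKO and 14.0 to 16.2 CPM in control. The 5 erythroid markers in the table were at 129 to 211 CPM in Pfas CKO and 8.60 to 9.51 CPM in control. Markers of T and NK cells (7 in the table) and of B cells (5) summed to at most 2.69 and 7.11 CPM in Pfas CKO and 2.67 and 5.48 CPM in control, and 0 markers of any list were at 0 in all libraries. Replication and cell cycle transcripts of any of these cells are counted together with those of fibroblasts.

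Start-site sequence was available for 29 of the 36 genes, as 34 windows of 300 bases, 250 before and 50 from the annotated start on (RefSeq, GRCm38.p6). Those of 6 genes are shown because they are genes called with small p in either direction (Mcm3, Orc6, Cdt1, E2f1) or further called genes that hold an E2F-type motif (Mcm5, Rfc3). Each is written 5′ to 3′ on the gene's strand, and capitals mark the letters TTTCCCGC, TTTGGCGC, TTTCGCGC or TTTGCCGC on either strand. The windows are chr1:20820263-20820562 on the minus strand for Mcm3, chr8:85299382-85299681 on the plus strand for Orc6, chr8:122567765-122568064 on the plus strand for Cdt1, chr2:154569377-154569676 on the minus strand for E2f1, chr8:75109259-75109558 on the plus strand for Mcm5 and chr5:151651159-151651458 on the minus strand for Rfc3. The E2f1 window follows a RefSeq start that lies inside the gene as GENCODE M21 places it (end at 154569892).
Mcm3: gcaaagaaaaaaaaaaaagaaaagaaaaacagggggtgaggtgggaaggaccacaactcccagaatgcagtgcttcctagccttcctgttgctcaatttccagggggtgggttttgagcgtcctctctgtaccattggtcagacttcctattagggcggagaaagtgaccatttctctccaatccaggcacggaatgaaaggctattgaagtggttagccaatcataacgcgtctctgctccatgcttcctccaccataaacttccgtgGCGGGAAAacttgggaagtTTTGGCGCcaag
Orc6: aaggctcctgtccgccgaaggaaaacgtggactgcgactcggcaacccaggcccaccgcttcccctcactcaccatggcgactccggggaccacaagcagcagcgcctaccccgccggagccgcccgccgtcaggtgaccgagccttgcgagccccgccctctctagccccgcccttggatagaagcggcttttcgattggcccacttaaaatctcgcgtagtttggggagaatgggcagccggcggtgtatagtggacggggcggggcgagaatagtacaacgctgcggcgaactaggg
Cdt1: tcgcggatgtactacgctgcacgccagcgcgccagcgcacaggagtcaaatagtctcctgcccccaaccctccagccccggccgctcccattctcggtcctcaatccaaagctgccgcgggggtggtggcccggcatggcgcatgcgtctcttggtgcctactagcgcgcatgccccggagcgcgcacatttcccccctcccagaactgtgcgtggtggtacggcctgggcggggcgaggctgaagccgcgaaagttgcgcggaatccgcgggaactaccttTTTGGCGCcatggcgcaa
E2f1: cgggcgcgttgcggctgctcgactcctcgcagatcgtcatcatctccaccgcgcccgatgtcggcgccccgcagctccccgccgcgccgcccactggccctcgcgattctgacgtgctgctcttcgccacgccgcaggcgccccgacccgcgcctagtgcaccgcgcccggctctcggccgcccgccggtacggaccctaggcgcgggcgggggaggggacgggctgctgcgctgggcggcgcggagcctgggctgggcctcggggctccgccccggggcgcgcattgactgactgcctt
Mcm5: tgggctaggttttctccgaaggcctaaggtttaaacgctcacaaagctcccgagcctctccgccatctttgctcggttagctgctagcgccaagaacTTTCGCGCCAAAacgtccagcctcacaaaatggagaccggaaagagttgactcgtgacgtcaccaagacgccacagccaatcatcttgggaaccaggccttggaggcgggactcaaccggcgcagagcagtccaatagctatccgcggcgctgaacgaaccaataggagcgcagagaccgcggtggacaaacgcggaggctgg
Rfc3: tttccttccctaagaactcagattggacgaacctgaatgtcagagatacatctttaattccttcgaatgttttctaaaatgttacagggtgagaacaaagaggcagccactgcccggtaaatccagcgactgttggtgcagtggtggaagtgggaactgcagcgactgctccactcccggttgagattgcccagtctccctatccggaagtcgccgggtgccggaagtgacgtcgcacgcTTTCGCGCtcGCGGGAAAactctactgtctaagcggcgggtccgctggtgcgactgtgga

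With the first transcribed base as 1, the motifs began at bases 20 and 39 in Mcm3, at base 33 in Cdt1, at bases -153 and -149 in Mcm5, where the copies overlap, and at bases -10 and 1 in Rfc3. The Orc6 and E2f1 windows held none. The whole E2f1 window lies inside the gene as GENCODE M21 places it, so the sequence at the GENCODE start of E2f1 was not searched. An E2F motif was present for 13 of the 29 genes (44.8%), against 4.58% of 10837 tested genes with a window and 2.60% of all 27025 genes with one. A gene with several annotated starts counted if any of its windows held the motif. Lig1, Mcm7 and Uhrf1 held it in some of their windows only. The CCAAT letters read by the factor NF-Y, on either strand, were present for 18 of the 29 (62.1%), against 43.0% of tested genes, and TTTGAA, a core of the cell cycle homology region of mitotic genes, for 4 of the 29 (13.8%), against 14.8%. Both directions of change occurred among genes with the E2F motif in these windows. Of the 13 genes with it, 2 were higher, 3 were lower and 8 passed in neither direction (median log2 fold change 0.04). Of the 16 without it, 4 were higher, 1 was lower and 11 passed in neither (median 0.10). The only lower gene without it was E2f1, whose GENCODE start was not searched. These windows therefore cannot show whether a lower gene lacks the motif. Over all genes tested, 33.4% were higher and 35.2% lower. The called genes Ccne2, Mcm4, Rfc2 and Prim2 had no window and are in neither count. A match describes these letters only.

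**Figure D2:**
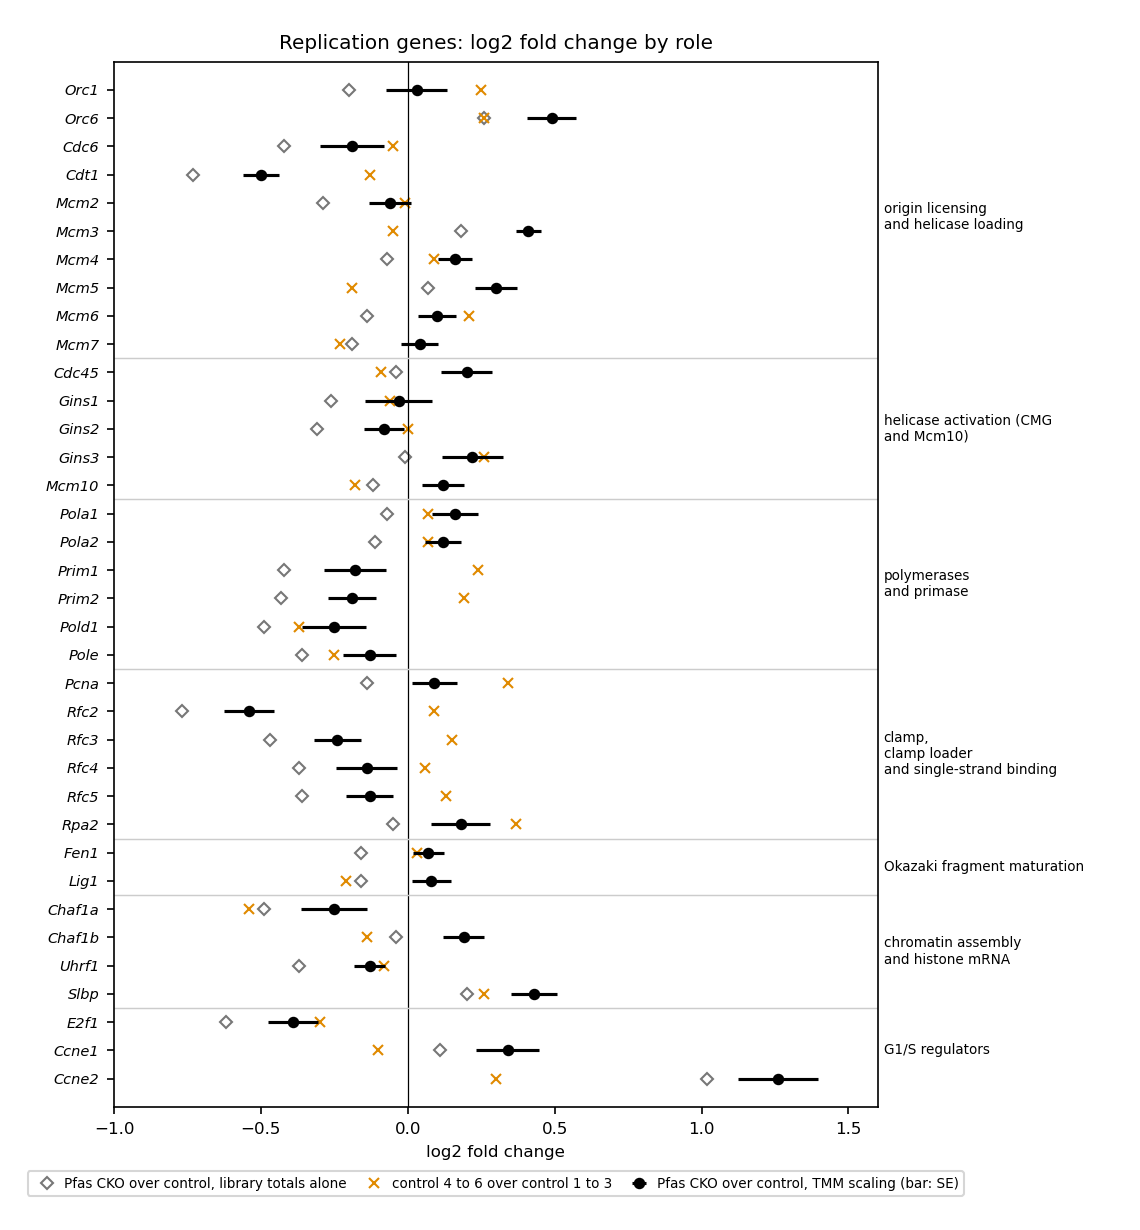
Log2 fold change (x axis) of each replication gene, grouped by role down the page. Black points are Pfas CKO over control with TMM scaling (bar, SE), grey diamonds the same comparison scaled by library totals alone, and orange crosses control 4 to 6 over control 1 to 3; every diamond lies to the left of its point, and the only black point beyond 0.6 is Ccne2 (1.26).

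Of 10 licensing genes, 4 were higher and 1 was lower, where 33.4% and 35.2% of all genes were. Cdt1, which brings the helicase to origins, had 26.9, 32.7 and 34.5 CPM in the lowest, median and highest Pfas CKO library, against 42.3, 45.2 and 46.9 CPM in control. Cdt1 averaged 46.7 CPM in control 1 to 3 and 43.2 CPM in control 4 to 6. Every Pfas CKO library was below every control library, and Cdt1 fell to 70.9% of control (log2 fold change -0.50 ± 0.0605, edgeR adjusted p = 3.03e-06). Orc6, a small subunit of the origin recognition complex, moved the other way, with 15.3, 17.0 and 18.7 CPM in Pfas CKO against 10.2, 12.1 and 13.8 CPM in control, again without overlap (0.49 ± 0.0837, edgeR adjusted p = 8.94e-05). Orc6 differed between the control sets too (log2 difference 0.26, control 4 to 6 over control 1 to 3), and 7.14% of its exonic bases lie opposite Vps35, which was higher in Pfas CKO (392 against 314 CPM). Orc1, a subunit that binds ATP, averaged 7.13 ± 0.805 CPM in Pfas CKO libraries and 6.98 ± 0.931 CPM in control libraries (SD, n = 6 each; edgeR adjusted p = 0.813). Cdc6, the ATPase that works with Cdt1, had 6.03 to 9.95 CPM in Pfas CKO and 7.80 to 9.21 CPM in control, overlapping, with a log2 fold change of -0.19 (edgeR adjusted p = 0.128). Cdc6 was lowest in Pfas CKO 3 and highest in Pfas CKO 4, and it was lower without Pfas CKO 4 (-0.30, edgeR adjusted p = 0.0107) or without Pfas CKO 2 and 4 (-0.37, edgeR adjusted p = 0.00137).

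The helicase subunits did not move as a block. Mcm3 had 63.5, 65.6 and 71.4 CPM in Pfas CKO, against 48.5, 50.1 and 50.9 CPM in control. The Mcm3 groups did not overlap, the control libraries were tightly grouped (SD 0.845 CPM), and Mcm3 rose 1.33-fold (0.41 ± 0.0428, edgeR adjusted p = 5.95e-07). Mcm5 had 37.1, 40.7 and 48.3 CPM in Pfas CKO against 30.6, 33.1 and 37.3 CPM in control, and the groups overlapped only between the lowest Pfas CKO and the highest control libraries. Mcm5 was higher with TMM (0.30 ± 0.0705, edgeR adjusted p = 0.00141) but was not called with library totals (0.07, edgeR adjusted p = 0.416). The control sets of Mcm5 differed, with 35.8 CPM on average in control 1 to 3 and 31.7 CPM in control 4 to 6. Its log2 fold change was 0.22 against control 1 to 3 and 0.39 against control 4 to 6. Mcm4 had 39.9, 42.6 and 49.3 CPM in Pfas CKO against 36.8, 39.0 and 41.8 CPM in control, overlapping. It passed with TMM (0.16 ± 0.0581, edgeR adjusted p = 0.0239), and its sign turned with library totals (-0.07). Mcm4 also missed the threshold without Pfas CKO 2, Pfas CKO 4, control 2 or control 3 (edgeR adjusted p = 0.0596, 0.0732, 0.0578 and 0.0505).

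The other subunits overlapped between groups. Mcm2 had 21.8, 25.5 and 29.6 CPM in Pfas CKO and 24.6, 26.3 and 27.7 CPM in control (log2 fold change -0.06 ± 0.0704, edgeR adjusted p = 0.486). Mcm6 had 54.3, 60.4 and 63.2 CPM in Pfas CKO and 48.3, 56.1 and 62.9 CPM in control (0.10 ± 0.0636, edgeR adjusted p = 0.193). Mcm7 had 38.7, 39.7 and 43.1 CPM in Pfas CKO and 34.7, 38.9 and 43.5 CPM in control (0.04 ± 0.0615, edgeR adjusted p = 0.545). Mcm6 and Mcm7 were at different levels in the control sets, with log2 differences of control 4 to 6 over control 1 to 3 of 0.21 for Mcm6 and -0.23 for Mcm7. Summed over Mcm2 to Mcm7, every Pfas CKO library (265 to 300 CPM) was above every control library (242 to 247 CPM) with TMM scaling, the highest being Pfas CKO 2. Scaled by library totals alone, Pfas CKO 2 (280 CPM) was above and the other 5 Pfas CKO libraries (244 to 254 CPM) were below the control libraries (261 to 269 CPM).

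Per transcript length, Mcm3 was the most abundant helicase subunit in Pfas CKO, with 44.8 ± 1.37 TPM (transcripts scaled to length and library), and second to Mcm6 in control, with 40.6 ± 1.21 TPM (SD, n = 6 each). Mcm6 had 39.0 ± 2.20 TPM in Pfas CKO and 44.4 ± 3.30 TPM in control. Mcm2 was the least abundant, with 14.7 ± 1.42 TPM in Pfas CKO and 18.7 ± 0.956 TPM in control. Since TPM carries the scaling of library totals, ratios between subunits of the same library were compared, which no library scaling changes. Of 32 pairs of replication genes within a complex or among the E cyclins, 7 had ratios that did not overlap between the 6 Pfas CKO and 6 control libraries, where 46.0% of all pairs of tested genes did not overlap. The Mcm3 to Mcm7 ratio was 1.29 to 1.47 (median 1.35) in Pfas CKO and 0.951 to 1.18 (median 1.06) in control, and the Mcm2 to Mcm3 ratio was 0.298 to 0.361 in Pfas CKO and 0.431 to 0.484 in control. The Mcm3 to Mcm4 and Mcm2 to Mcm5 ratios were the other helicase pairs that did not overlap, 4 of 15 in all. Ratios among polymerase alpha and primase subunits (6 pairs) and GINS subunits (3 pairs) all overlapped.

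**Figure D3:**
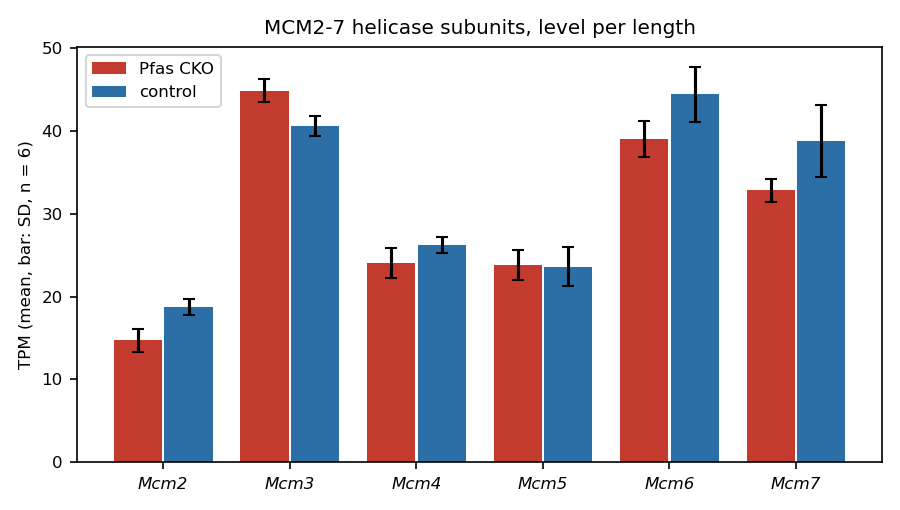
Level per length (TPM, y axis) of the 6 helicase subunits in Pfas CKO (red, left of each pair) and control (blue) libraries, as mean with SD (n = 6 each). Mcm3 is the subunit with the clearly higher Pfas CKO bar (44.8 against 40.6 TPM), while Mcm2, Mcm4, Mcm6 and Mcm7 have lower ones on this scale.

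None of the 5 helicase activation genes passed the test, where 33.4% of all genes were higher and 35.2% lower. Cdc45, which joins the helicase at firing, had 12.5 ± 1.68 CPM in Pfas CKO and 11.0 ± 0.776 CPM in control (0.20 ± 0.0871, edgeR adjusted p = 0.0581), and it passed without Pfas CKO 3, Pfas CKO 5 or control 3 (edgeR adjusted p = 0.0269, 0.0422 and 0.0396). The GINS subunits Gins1, Gins2 and Gins3 had log2 fold changes of -0.03, -0.08 and 0.22, with edgeR adjusted p of 0.849, 0.309 and 0.0762. Gins3 passed without Pfas CKO 3 (0.26, edgeR adjusted p = 0.0426) or control 4 (0.29, edgeR adjusted p = 0.0144). Gins2 reads may include those of Gse1, which lies opposite 70.7% of the exonic bases of Gins2. Gse1 was itself lower (28.2 CPM in Pfas CKO, 37.0 CPM in control). Mcm10, a scaffold of the active helicase, had 11.2 to 13.7 CPM in Pfas CKO and 10 to 12.9 CPM in control (0.12, edgeR adjusted p = 0.162).

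Of 6 polymerase and primase genes, 0 were higher (33.4% of all genes) and 1 was lower (35.2% of all genes). Prim2, the large primase subunit, had 9.15, 9.60 and 11.9 CPM in Pfas CKO against 9.93, 11.4 and 12.8 CPM in control, and the groups overlapped through Pfas CKO 2 and 4. The change was near the threshold (-0.19 ± 0.0825, edgeR adjusted p = 0.0479) and missed it when Pfas CKO 1, 3, 5 or 6 or control 2, 4, 5 or 6 was left out, with edgeR adjusted p up to 0.109. Prim1, the catalytic primase subunit, had a log2 fold change of -0.18 (edgeR adjusted p = 0.136), and passed without control 1 (-0.25, edgeR adjusted p = 0.0319). Pola1 and Pola2, subunits of polymerase alpha, were at 0.16 and 0.12 (edgeR adjusted p = 0.0845 and 0.0919). Without Pfas CKO 2 Pola1 passed (0.19, edgeR adjusted p = 0.0374), and Pola2 did so without Pfas CKO 3 or control 4 (0.16 each, edgeR adjusted p = 0.0307 and 0.0346). Pold1, the catalytic subunit of polymerase delta, had 11.4 ± 1.79 CPM in Pfas CKO and 13.6 ± 1.81 CPM in control (-0.25 ± 0.109, edgeR adjusted p = 0.0511). It was lower against control 1 to 3 (-0.42, edgeR adjusted p = 0.00732) and not against control 4 to 6 (-0.07, edgeR adjusted p = 0.619), and the control sets themselves differed by -0.37. Pold1 also passed when Pfas CKO 2 or 6 or control 4, 5 or 6 was left out, with edgeR adjusted p from 0.0095 to 0.0459. Pole, the catalytic subunit of polymerase epsilon, was the least abundant replication gene per length, with 2.32 ± 0.242 TPM in Pfas CKO and 3.10 ± 0.373 TPM in control, and its log2 fold change in CPM was -0.13 (edgeR adjusted p = 0.215; -0.20 and 0.0452 without Pfas CKO 2).

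Pcna, the sliding clamp and the most abundant replication gene, had 227, 237 and 251 CPM in Pfas CKO against 192, 222 and 258 CPM in control. The Pfas CKO libraries lay inside the control range (0.09 ± 0.0762, edgeR adjusted p = 0.296). Control libraries fell into 2 levels, 251 CPM on average in control 4 to 6 and 196 CPM in control 1 to 3, so Pcna was higher against control 1 to 3 (0.28, edgeR adjusted p = 0.000207) and not against control 4 to 6 (-0.08, edgeR adjusted p = 0.148). Rpa2, of the single-strand binding complex, showed the same pattern, with log2 fold changes of 0.39 against control 1 to 3 (edgeR adjusted p = 0.0014) and -0.01 against control 4 to 6. Its overall log2 fold change of 0.18 was not called (edgeR adjusted p = 0.122) and passed without control 4 or control 5 (0.24 each, edgeR adjusted p = 0.0448 and 0.0415).

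The clamp loader had 2 lower subunits, where 35.2% of all genes were lower. Rfc2 had 11.4, 13.1 and 14.4 CPM in Pfas CKO against 15.4, 18.5 and 21 CPM in control, without overlap, and fell to 68.8% of control (-0.54 ± 0.0842, edgeR adjusted p = 3.78e-05). On the opposite strand, Lat2 lies over 19.1% of the exonic bases of Rfc2 and was itself lower (136 CPM in Pfas CKO, 275 CPM in control). No source used here says if counting used the strand, and Rfc2 and Lat2 reads cannot be told apart there. Rfc3 had 6.72, 7.47 and 8.82 CPM in Pfas CKO against 8.07, 9.14 and 9.63 CPM in control, where Pfas CKO 2 was inside the control range (-0.24 ± 0.0795, edgeR adjusted p = 0.0154). Rfc4 and Rfc5 were at -0.14 and -0.13 (edgeR adjusted p = 0.243 and 0.168). Rfc2 to Rfc5 was the 1 of 6 small-subunit pairs whose TPM ratio did not overlap, at 1.73 to 2.33 in Pfas CKO and 2.37 to 3.2 in control. The lagging-strand genes passed in neither direction, Fen1, the flap nuclease, at 0.07 (edgeR adjusted p = 0.28) and Lig1, the ligase, at 0.08 (edgeR adjusted p = 0.325).

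Slbp, which binds the stem-loop of replication-dependent histone mRNAs, had 63.3, 67.5 and 81.3 CPM in Pfas CKO against 45.3, 52.3 and 57.0 CPM in control. The groups did not overlap, Pfas CKO 4 was the highest, and Slbp rose 1.35-fold (0.43 ± 0.0773, edgeR adjusted p = 0.000141). Control 4 to 6 were above control 1 to 3 for Slbp as well (56.4 against 46.6 CPM on average). The subunits of CAF-1 had log2 fold changes of opposite sign. Chaf1b had 8.96, 9.97 and 10.4 CPM in Pfas CKO against 7.82, 8.50 and 9.80 CPM in control, overlapping (0.19 ± 0.0703, edgeR adjusted p = 0.024; -0.04 with library totals, where its sign turned). The Chaf1b call was lost without Pfas CKO 2, control 1 or control 4 (edgeR adjusted p = 0.0525, 0.0517 and 0.0574). Chaf1a had 15.7 ± 0.876 CPM in Pfas CKO and 18.7 ± 3.74 CPM in control (-0.25 ± 0.112, edgeR adjusted p = 0.0581). The controls of Chaf1a split into 15.3 CPM in control 4 to 6 and 22.0 CPM in control 1 to 3, and Chaf1a was lower against control 1 to 3 (-0.49, edgeR adjusted p = 3.09e-05) and not against control 4 to 6 (0.03, edgeR adjusted p = 0.714). It passed without control 4, 5 or 6 (edgeR adjusted p = 0.0117, 0.0361 and 0.0309). The Chaf1a to Chaf1b ratio in TPM was nevertheless apart, at 0.833 to 0.963 in Pfas CKO and 1.05 to 1.54 in control, and 33.6% of the exonic bases of Chaf1a lie opposite Ubxn6. Uhrf1, which brings the maintenance DNA methyltransferase to new DNA, had 27.6, 29.3 and 32.3 CPM in Pfas CKO against 30.8, 32.1 and 35.3 CPM in control, overlapping (-0.13 ± 0.0541, edgeR adjusted p = 0.0382). The Uhrf1 call was lost when Pfas CKO 1, 3, 5 or 6 or control 2, 3 or 6 was left out, with edgeR adjusted p up to 0.0937.

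Of the 3 G1/S regulators, 2 were higher and 1 was lower, where 33.4% and 35.2% of all genes were. With near-identical libraries summed, Ccne1 (edgeR adjusted p = 0.206) and E2f1 (edgeR adjusted p = 0.0718) lost their calls. Ccne2, an activator of Cdk2 at S phase entry, had 7.00, 10.3 and 12.4 CPM in Pfas CKO, against 3.46, 4.13 and 5.14 CPM in control. Every Pfas CKO library was above every control library, the lowest being Pfas CKO 2, and Ccne2 rose 2.39-fold (1.26 ± 0.136, edgeR adjusted p = 8.92e-07). Part of Ccne2 (10.5% of exonic bases) lies opposite Ints8, which did not pass the test (43.0 CPM in Pfas CKO, 45.2 CPM in control). Its relative Ccne1 had 4.39, 5.16 and 6.03 CPM in Pfas CKO against 3.43, 4.33 and 4.64 CPM in control, overlapping through Pfas CKO 2 (0.34 ± 0.108, edgeR adjusted p = 0.0107), and was not called with library totals (0.11, edgeR adjusted p = 0.374). Per length, Ccne2 was the more abundant E cyclin in Pfas CKO (7.14 ± 1.38 TPM, with Ccne1 at 5.36 ± 0.662 TPM) and the less abundant in control (3.62 ± 0.482 TPM, with Ccne1 at 5.16 ± 0.741 TPM). The Ccne1 to Ccne2 ratio was 0.571 to 0.896 in Pfas CKO and 1.01 to 1.98 in control. E2f1, a transcription factor for S phase genes, had 12.1, 14.0 and 15.5 CPM in Pfas CKO against 15.9, 18.3 and 20.3 CPM in control. Its groups did not overlap, and E2f1 fell to 76.4% of control (-0.39 ± 0.0842, edgeR adjusted p = 0.000749), with control 4 to 6 (16.5 CPM) nearer to Pfas CKO than control 1 to 3 (20 CPM).

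**Figure D4:**
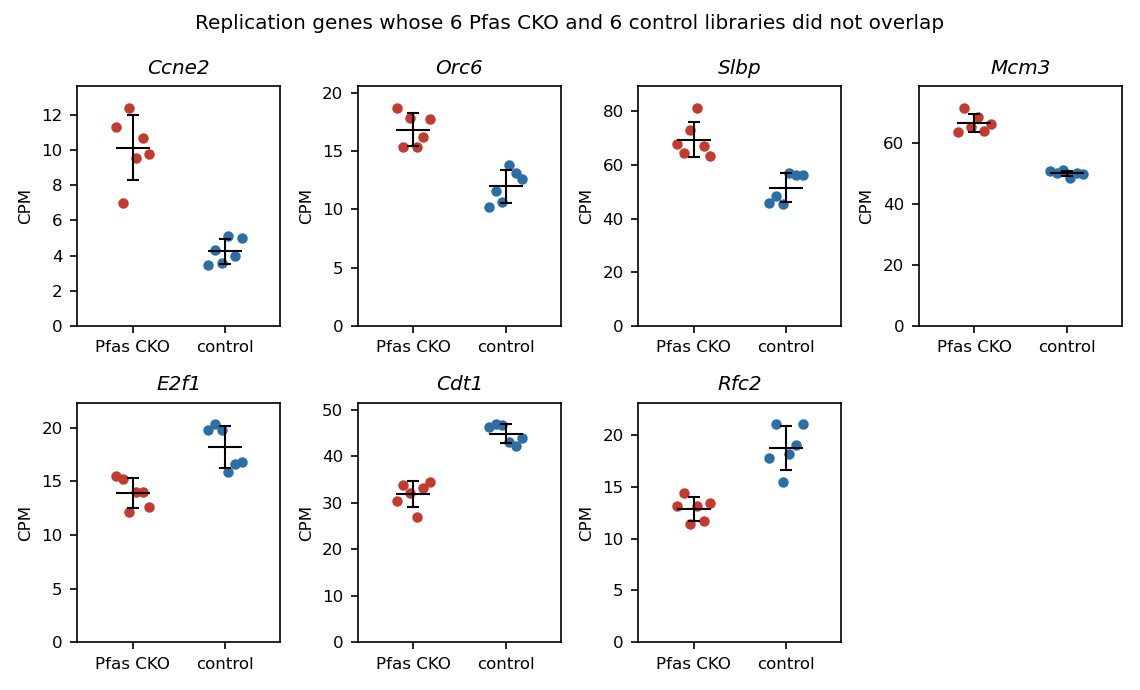
Level (CPM, TMM-scaled, y axis from 0) in each library for the 7 replication genes whose groups did not overlap; points are libraries in replicate order 1 to 6 from left to right, bars are mean and SD (n = 6 each). Ccne2 shows the largest fold between group means, with 7.00 to 12.4 CPM in Pfas CKO libraries and 3.46 to 5.14 CPM in control libraries. E2f1, Orc6 and Slbp show the step between control 1 to 3 and control 4 to 6, and Cdt1 shows a smaller one.

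In CPM, 4 replication genes lay wholly above the control libraries (Ccne2, Orc6, Slbp and Mcm3; 23.2% of all genes) and 3 wholly below (E2f1, Cdt1 and Rfc2; 23.9% of all genes). By the median over the set, in which opposite shifts cancel, libraries of Pfas CKO lay close to the control mean. The median replication gene was 0.13 above the control mean on the log2 scale in Pfas CKO 2, the library with the most Pfas, and between -0.03 and 0.07 in the other 5. Pfas CKO 2 was the highest of its group for 15 of the 36 genes. Without Pfas CKO 2 and 4, 7 replication genes were higher (33.4% of all genes) and 10 were lower (37.2% of all genes).

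The control sets served as a comparison of libraries of 1 genotype. They also differed in the share of non-zero values that were whole numbers (within 0.005), 17.3% to 18.2% in control 4 to 6 and 60.9% to 61.5% in control 1 to 3, against 20% to 26.7% in Pfas CKO, and a different quantification of the sets cannot be told apart from a difference between their cells. Between control 4 to 6 and control 1 to 3, 5 replication genes were higher (23.5% of all genes) and 8 were lower (22.0% of all genes). The size of these differences was the greatest for Chaf1a (-0.54), Pold1 (-0.37), Rpa2 (0.37) and Pcna (0.34). Tested against each control set alone, 5 replication genes were higher against both (26.0% of all genes) and 3 were lower against both (26.4% of all genes). The 5 were Ccne2, Mcm3, Orc6, Slbp and Mcm5, and the 3 were Cdt1, Rfc2 and E2f1.

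Among 47 other replication factors, 10 were higher and 20 lower in Pfas CKO, with a median log2 fold change of -0.15, where 33.4% of all genes were higher and 35.2% lower. Dna2, a nuclease and helicase of lagging-strand and end processing, fell to 1.79 ± 0.193 CPM in Pfas CKO, against 6.88 ± 0.742 CPM in control (-1.93 ± 0.105, edgeR adjusted p = 3.31e-10). Dnmt1, the maintenance DNA methyltransferase that Uhrf1 brings to replicated DNA, fell to 75.9 ± 9.46 CPM in Pfas CKO, against 180 ± 8.01 CPM in control (-1.25 ± 0.0739, edgeR adjusted p = 8.86e-10). Top1, which relieves the twist ahead of the fork, was higher, with 346 ± 33.0 CPM in Pfas CKO and 166 ± 11.7 CPM in control (1.06 ± 0.0682, edgeR adjusted p = 2.29e-09). Gmnn, the inhibitor of Cdt1, was lower, with 4.95 ± 0.574 CPM in Pfas CKO and 5.81 ± 0.532 CPM in control (-0.23, edgeR adjusted p = 0.0414), and the Cdt1 to Gmnn ratio in TPM overlapped (2.40 to 3.22 in Pfas CKO, 2.93 to 4.17 in control). Gmnn was chosen after its values were seen. The change of Dna2 was larger in size than that of any of the 36 genes. Those of Dnmt1 and Top1 were larger than that of any of the 36 except Ccne2.

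Of 13 genes of deoxynucleotide supply, 2 were higher (33.4% of all genes) and 7 lower (35.2% of all genes), with a median of -0.21. Dck, which salvages deoxynucleosides, had 30.2 ± 4.98 CPM in Pfas CKO and 68.5 ± 12.6 CPM in control (-1.18 ± 0.128, edgeR adjusted p = 8.22e-07). Samhd1, which degrades deoxynucleotides, had 59.2 ± 10 CPM in Pfas CKO and 103 ± 6.17 CPM in control (-0.79, edgeR adjusted p = 3.39e-06). Of 24 genes of replication stress and repair, 1 was higher (Msh6, 0.21; 33.4% of all genes) and 7 were lower (35.2% of all genes), with a median of -0.15. The lower genes included Rad9a of the checkpoint clamp (24.3 ± 1.91 CPM in Pfas CKO, 39.7 ± 3.02 CPM in control). The crosslink repair gene Fanca was lower too, with 5.24 ± 0.518 CPM in Pfas CKO and 8.55 ± 0.614 CPM in control (-0.71, edgeR adjusted p = 1.95e-06).

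The 31 G1/S control genes split into 12 higher (33.4% of all genes) and 11 lower (35.2% of all genes), with a median of 0.08. Cdkn1a, the CDK inhibitor p21, had 487 ± 13.5 CPM in Pfas CKO and 235 ± 15.4 CPM in control (1.05 ± 0.0492, edgeR adjusted p = 5.99e-11). Looked at after the values were seen, 6 of the 7 CDK inhibitor genes in that list were higher (33.4% of all genes). Their log2 fold changes were 0.63 to 1.1, although Cdkn2a had at most 1.17 CPM in any library. The exception was Cdkn2c (0.13, edgeR adjusted p = 0.206). With near-identical libraries summed, Cdkn1c, Cdkn2a and Cdkn2b lost their calls (edgeR adjusted p = 0.065, 0.0501 and 0.114). Cdkn1a, Cdkn1b and Cdkn2d stayed higher in that setting, where 18.3% of all genes were. Ccnd1, cyclin D1, fell to 24.4 ± 3.45 CPM in Pfas CKO, against 52.8 ± 1.69 CPM in control (-1.11 ± 0.0763, edgeR adjusted p = 5.06e-09). Fbxw7, the substrate receptor that sends cyclin E protein to degradation, was lower as well, with 25.7 ± 1.35 CPM in Pfas CKO and 39.6 ± 0.918 CPM in control (-0.62, edgeR adjusted p = 1.61e-08).

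Of 30 mitosis genes, 4 were higher (Mki67, Ccnb2, Ube2c and Kif11) and 15 were lower, with a median of -0.20, where 33.4% of all genes were higher and 35.2% lower. Mki67, the gene of the proliferation antigen Ki-67, had 199 ± 7.02 CPM in Pfas CKO and 90.7 ± 4.32 CPM in control (1.13 ± 0.0458, edgeR adjusted p = 1.03e-11). Its direction was opposite to that of most called genes of its list, such as the mitotic kinase Plk1 (9.66 ± 1.07 CPM in Pfas CKO, 16.6 ± 1.6 CPM in control, -0.78 ± 0.0852, edgeR adjusted p = 9.34e-07) and the checkpoint kinase Bub1b (11.9 ± 1.08 and 17.9 ± 1.45 CPM). Whether the lists differ from the 36 replication genes was not tested.

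**Figure D5:**
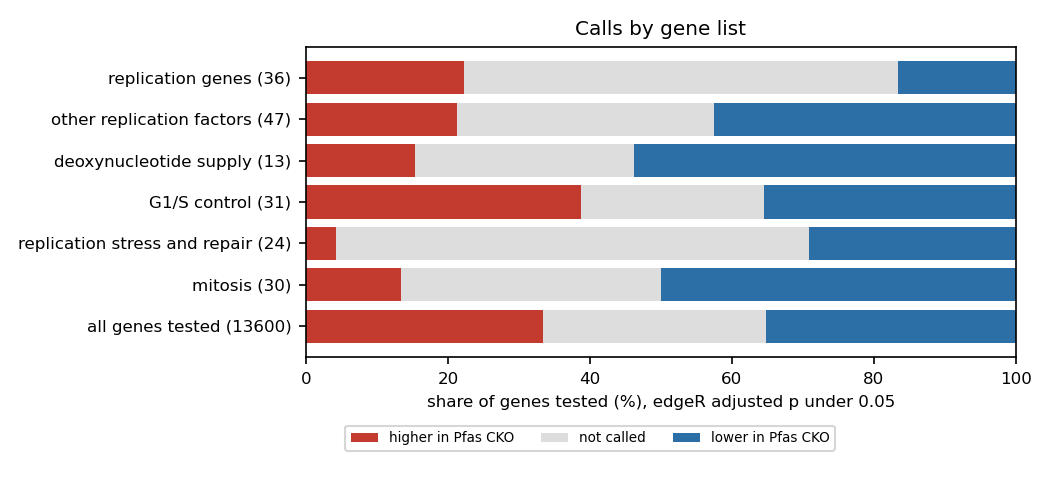
Share of tested genes (x axis, percent) that were higher in Pfas CKO (red), not called (grey) or lower in Pfas CKO (blue), by edgeR adjusted p under 0.05 with TMM scaling, for each list with its number of genes. The replication genes have a grey share from 22 of 36 genes, and the blue share is widest for deoxynucleotide supply (7 of 13) and mitosis (15 of 30), where all genes have 35.2%.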

How the data were processed

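Messenger RNA was measured in 12 libraries. Per the file headers, the authors deposited estimated counts (not normalized, not whole), TPM and FPKM values per gene, of which FPKM was not used. The submitters' processing notes list RSEM, Bowtie2 and DESeq2 with no roles for 9 libraries, no tool for control 1 to 3, and the build GRCm38 for all. Genes with a blank value in any library (1067) were left out, which left 17704. The quasi-likelihood test of edgeR 4.0.16 (R 4.3.3) was run on rounded estimated counts with TMM scaling, filterByExpr and no covariate, and p was adjusted by Benjamini-Hochberg over 13600 genes. SEs came from the log2 fold change and its F statistic. A count of 0 (floor of 3 counts) allows up to 0.161 CPM in Pfas CKO and 0.134 CPM in control libraries, counting error only. Replication genes and lists were chosen with earlier results of these data known, by function. Values are given in full for Mcm2 to Mcm7, Pcna and the 6 called genes with the smallest p in each direction, and related lists name the 3 with the smallest p, not all of which are reported here. Alternatives were RLE and library totals scaling, DESeq2 1.42.0, limma 3.58.1 (voom, and trend on log2 TPM), other filters and thresholds, a replicate block, and libraries or sets left out or summed. The test was also run on simulated counts drawn independently for each library. These lack the near-identical library sets seen here, so that run cannot check the test for such sets. Gene positions are from GENCODE M21. Motifs were searched in the RefSeq windows on both strands.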

Additional observations from a re-analysis of the deposited data

Results flagged for a closer look

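Within-group spread was examined for each replication gene in 72 groups of 6 libraries, and in 4 of them 1 library stood apart from the rest. By chance about 1 in 20 groups would be picked out. Orc1 was lowest in Pfas CKO 2, at 5.59 CPM, where the other Pfas CKO libraries had 6.99 to 7.78 CPM. Pola2 was lowest in Pfas CKO 3, at 17.5 CPM, where the others had 20 to 21.4 CPM. Prim2 was highest in Pfas CKO 2, at 11.9 CPM, where the others had 9.15 to 10 CPM. Fen1 was highest in Pfas CKO 2, at 32.8 CPM, where the others had 27.0 to 29.0 CPM.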

How the results depend on the processing

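Ccne2, Mcm3 and Orc6 were higher and Cdt1 and Rfc2 lower in Pfas CKO under all 26 alternatives. RLE scaling, DESeq2 and limma-voom gave 8 to 9 higher and 4 to 7 lower replication genes. Scaling by library totals gave 2775 higher and 7202 lower genes over all, and 4 higher and 17 lower replication genes with a median of -0.18. With limma-trend on log2(TPM + 1) these were 2279, 7280, 3, 24 and -0.20, and with log2(TPM + 0.1) 2271, 7263, 3, 24 and -0.21. These 3 settings share the library totals and moved the median of all genes to -0.26, -0.28 and -0.31. In each of them the sign of the same 14 replication genes turned negative. Among these, TMM or the other setting called the gene with library totals for Mcm4 (-0.07), Mcm7 (-0.19), Fen1 (-0.16) and Chaf1b (-0.04), and with log2(TPM + 1) for Mcm4 (-0.13), Mcm6 (-0.18), Mcm7 (-0.23), Mcm10 (-0.18), Pola2 (-0.16), Pcna (-0.18), Fen1 (-0.21), Lig1 (-0.19) and Chaf1b (-0.08). With log2(TPM + 0.1) the values of the same 9 genes were -0.13, -0.18, -0.24, -0.21, -0.17, -0.18, -0.22, -0.20 and -0.08. Neither called the others (Orc1, Cdc45, Gins3, Pola1 and Rpa2 throughout, and Mcm6, Mcm10, Pola2, Pcna and Lig1 with library totals). Summing near-identical libraries, which leaves 5 samples, gave 2783 higher and 2877 lower genes, and 4 and 2 replication genes. An adjusted p under 0.01 left 5 and 3, and 3869 and 3999 genes over all. Without control 1 to 3 the median of the replication genes was -0.01, and without Pfas CKO 2 and 4 the lower ones numbered 10; the cause was not tested. With single libraries left out, 7 to 11 replication genes were higher and 4 to 8 lower, with a median of 0.04 to 0.08, while 4388 to 4535 genes over all were higher and 4575 to 5042 lower.

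Same-numbered libraries were not treated as pairs in the main test, as the labels state no pairing. The correlation of their deviations from the group means was -0.0441 to 0.166, and 3 of 6 correlated best with their own number. These values do not settle whether the libraries were paired. The replicate block gave 4529 higher and 4755 lower genes, and 8 higher and 6 lower replication genes with a median of 0.06. Each library's depth allows 0.131 to 0.161 CPM for a count of 0, far under the level of every replication gene.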
